A study of Citrus maxima and Citrus sinensis with 8 samples.

Results

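The genes described here encode the structural proteins and proteoglycans of the plant cell wall: arabinogalactan proteins, extensins and proline-rich proteins. A gene was a member if the description listed with it contained "arabinogalactan", "extensin", "fasciclin", "proline-rich", "hydroxyproline-rich" or "glycine-rich cell wall", in any case, and neither "receptor" nor "lipid transfer". Of the 30151 genes in the files, 41 were members, after 8 of 49 keyword matches had been left out as receptors or lipid transfer proteins. Only 43.0% of all genes carry a description, so wall proteins without one were not counted. By their descriptions the members fell into 11 hydroxyproline-rich glycoproteins, 9 leucine-rich repeat extensins, 5 fasciclin-like arabinogalactan proteins, 4 other arabinogalactan proteins, 3 extensins, 2 hybrid proline-rich proteins and 7 other proline-rich proteins, and no glycine-rich wall protein was found. The names are matches to proteins of other plants and do not show that each product lies in the wall: 2 members, Cs2g06390 and orange1.1t02316, are named as spliceosome-associated. Among the hydroxyproline-rich glycoproteins, Cs8g14650, orange1.1t00573 and XLOC_024449 are named as late embryogenesis abundant. By the Gene Ontology terms listed with them, 3 members are placed in the cell wall, as are 182 of all genes, and 3 are anchored to a membrane, as are 28. More members, 11, are placed in an intracellular membrane-bounded organelle, as are 2182 of all genes, and 6 at a cell-cell junction, as are 631.

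Typical wall proteins of these kinds have a backbone rich in proline, much of which is turned into hydroxyproline by prolyl 4-hydroxylases and then carries sugars. Whether each member has such a backbone was not examined. Extensins form rods that are cross-linked to each other through tyrosine, and this network is known to stiffen the wall and to take part in building the cell plate. Arabinogalactan proteins carry large branched chains of galactose and arabinose, and many are held at the outer face of the plasma membrane by a glycosylphosphatidylinositol (GPI) anchor, where they meet pectin and bind calcium. Fasciclin-like members add a domain known from cell adhesion proteins. Leucine-rich repeat extensins join a receptor-like repeat domain to an extensin tail that is bound into the wall. The root tip, where walls are made and stretched, is also the zone in which aluminum (Al) binds to the wall and stops elongation.

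Seedlings of *C. sinensis* ('Xuegan', labelled Al-tolerant) and *C. grandis* ('Shatian pummelo', labelled Al-intolerant) grew in sand and were fed an acid nutrient solution with 0 mM (control) or 1.0 mM AlCl3 (+Al) for 18 weeks. RNA of root tips of new white roots was sequenced in 2 libraries for each of the 4 groups, and each library came from pooled tips of 5 seedlings. The values are FPKM, the fragments counted on a gene divided by its length and by all fragments mapped in the library, so members can be ranked within a library. Reads of both species had been mapped to the *C. sinensis* genome. For this reason levels were compared within a species, and the species were compared only by their responses to Al. In bulk root tips, fewer cells of a type cannot be told apart from less RNA per cell.

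The FPKM of a library summed to between 713378 and 859570. The files hold no read totals, and the relative depth read from the steps of low values ran from 0.6998 to 1, lowest in *C. grandis* +Al library 1. That library stood apart from its replicate: over all genes tested, the median log2 difference between it and *C. grandis* +Al library 2 was -0.39, whereas the medians of the other 3 pairs of replicates lay between -0.02 and 0.14. A gene was tested if its mean was at least 1 FPKM in a group of the comparison. It was said to have risen or fallen at an adjusted p of at most 0.05 (limma on log2(FPKM + 0.1), Benjamini-Hochberg over all genes tested) with a log2 fold change of at least 1 in size, and its responses were said to differ between species at that adjusted p, whatever their size. Chlorophyll-binding proteins, as a sign of green tissue, summed to 10.3 to 12.9 FPKM over 7 genes. Of these, 2 were tested in *C. sinensis*, 5 in *C. grandis* and 5 in the difference. None was called, which is near the background for so few genes. At an unadjusted p of at most 0.05 there were 2, 0 and 1. Over all genes, 8922 of 19152, 4931 of 18677 and 6506 of 20158 passed that unadjusted p. No gene was described by a root meristem name.

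The members were expressed over a wide range. In each library between 35 and 39 of the 41 were above 0 and between 29 and 31 reached 1 FPKM. Cs8g13840 and orange1.1t03808, both named as pollen-specific leucine-rich repeat extensins, were listed at 0 in all 8 libraries. The extensin-like protein XLOC_011383 was the most abundant member in every library and supplied 26.9 to 42.9% of the summed FPKM of all members. It ranked between position 32 and position 59 among all genes in *C. sinensis*, and between 85 and 432 in *C. grandis*.

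The summed level of the wall proteins was higher under Al in *C. sinensis* and lower in *C. grandis*, given here as values with no test. In *C. sinensis* the members summed to 2567 and 2449 FPKM in control roots and to 4044 and 4221 FPKM in +Al roots. In *C. grandis* they summed to 1878 and 2072 FPKM in control roots and to 1154 and 973.4 FPKM in +Al roots. As a share of the whole library these sums were 0.316 and 0.296% against 0.504 and 0.522% in *C. sinensis*, and 0.219 and 0.250% against 0.162 and 0.122% in *C. grandis*. The control and +Al libraries did not overlap in either species. In the stacked plot of classes, the extensins, the fasciclin-like and other arabinogalactan proteins, the hybrid proline-rich and the other proline-rich proteins all summed higher in both +Al libraries of *C. sinensis* and lower in both +Al libraries of *C. grandis*. The leucine-rich repeat extensins summed to 141 and 141 against 137 and 135 FPKM in *C. sinensis*, and to 211 and 215 against 123 and 116 FPKM in *C. grandis*. The hydroxyproline-rich glycoproteins summed to 225 and 219 FPKM in control and 200 and 203 FPKM in +Al roots of *C. sinensis*, and to 230.5 and 236 against 197 and 252 FPKM in *C. grandis*.

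**Figure D1:**
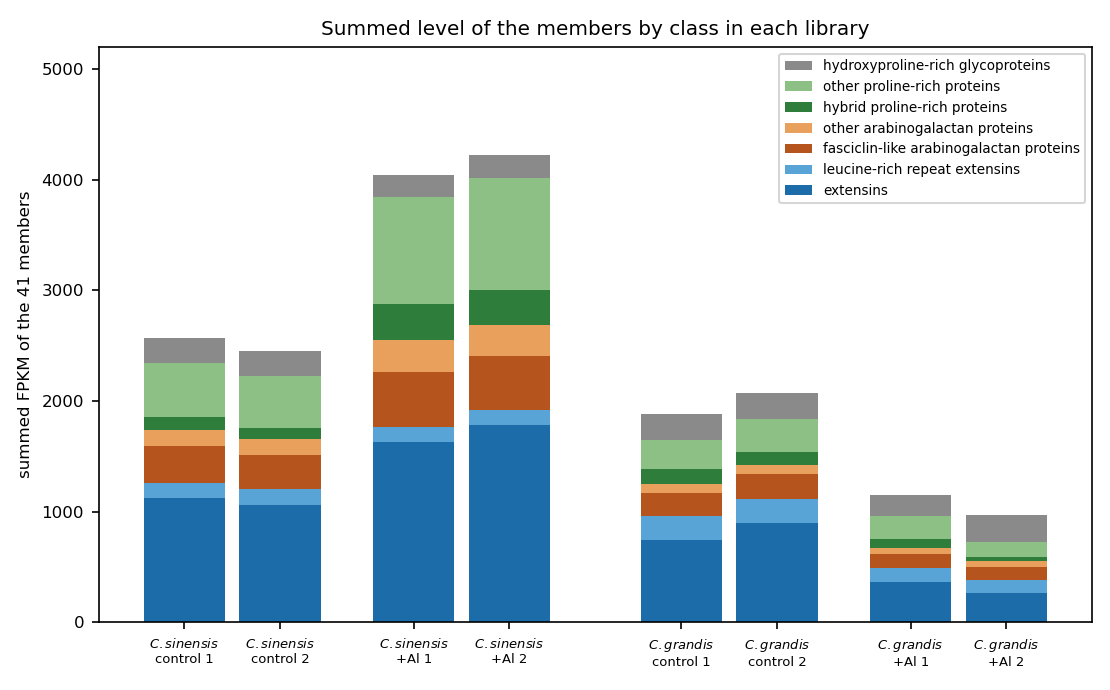
Summed FPKM of the 41 members in each of the 8 libraries, stacked by class; the 2 bars of a group are its replicate libraries. The *C. sinensis* +Al bars reach 4044 and 4221 FPKM and stand above the control bars, and the *C. grandis* +Al bars, at 1154 and 973.4 FPKM, stand below theirs.

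In *C. sinensis*, 32 members were tested, 6 rose under Al and none fell, beside 4.46% of all tested genes that rose and 4.06% that fell. The 6 were the arabinogalactan protein Cs2g05930, the extensin-like Cs2g05940, the fasciclin-like Cs2g16140, both hybrid proline-rich proteins and the repetitive proline-rich protein Cs4g05470. Of the 32, 23 had a log2 fold change above 0, and the median was 0.46, against -0.002 over all genes. At an unadjusted p of at most 0.05, 15 members were higher and 6 lower, beside 8922 of 19152 genes that passed in either direction. In *C. grandis*, 29 members were tested, 8 fell and none rose, beside 7.25% of all genes that fell and 5.2% that rose. The 8 were both extensins tested, 2 fasciclin-like proteins, and 1 member each of the other classes apart from the hydroxyproline-rich glycoproteins. There the median was -0.69, against -0.01 over all genes, and 26 of the 29 were below 0. At an unadjusted p of at most 0.05, 15 were lower and 0 higher, beside 4931 of 18677 genes that passed in either direction. None of the 8 falls in *C. grandis* was called under all 10 other settings: with no filter on low values 0 members fell, although 15 were lower at an unadjusted p of at most 0.05. Without control library 1 or control library 2, 2 of the 8 were called, without +Al library 2 there were 4, and without +Al library 1 there were 9. Of the 8, 7 were higher in +Al library 1 than in +Al library 2, against the direction of the median gene.

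The difference between the species was tested directly, as the log2 response in *C. grandis* minus the log2 response in *C. sinensis*. Of 33 members tested, 17 had the lower response in *C. grandis* and 0 the higher, beside 11.3 and 6.27% of all genes. The median difference was -1.10, against 0.005 over all genes. At an unadjusted p of at most 0.05, 18 members were lower and 0 higher, beside 6506 of 20158 genes that passed in either direction. Leaving out 1 library at a time gave between 10 and 19 lower responses: there were 10 without *C. sinensis* control library 1 or without either of its +Al libraries, and 11 without *C. grandis* control library 2. Of the 17, 10 were called under each of the 13 other settings tried: Cs2g05930, Cs2g05940, Cs2g16140, Cs4g01020, Cs6g13410, Cs7g06440, XLOC_011383, orange1.1t00255, orange1.1t00458 and orange1.1t05376. The calls of the other 7 (Cs2g01760, Cs3g08970, Cs3g08990, Cs4g05470, Cs4g13010, Cs8g18440 and orange1.1t04076) were each lost in 6 to 8 settings.

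**Figure D2:**
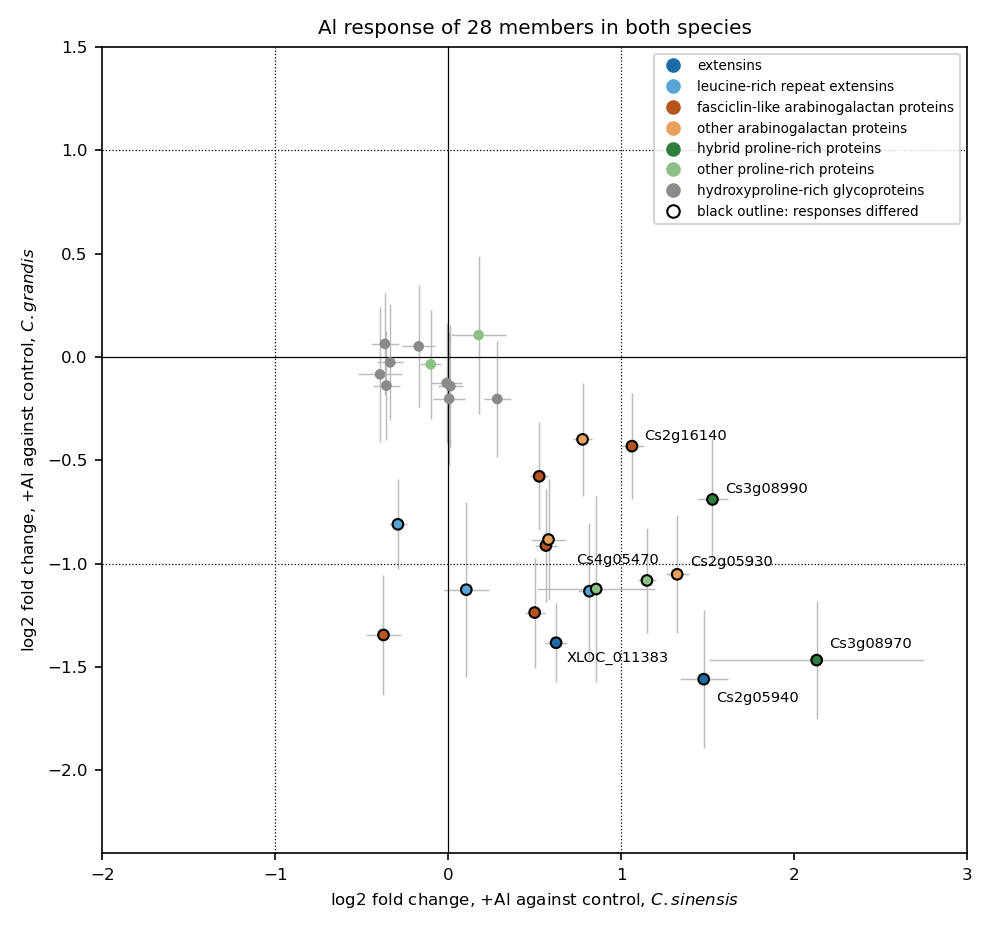
Log2 fold change (+Al against control) of the 28 members tested in both species, *C. sinensis* on the horizontal and *C. grandis* on the vertical axis, with bars of 1 standard error; colours are classes, a black outline marks a difference in response, and dotted lines mark a log2 fold change of 1 in size. Most arabinogalactan, extensin and proline-rich members lie at the lower right, and the hydroxyproline-rich glycoproteins lie near the origin.

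Of the 28 members tested in both species, 4 (14.3%) rose in *C. sinensis* but fell in *C. grandis*: Cs2g05930, Cs2g05940, Cs3g08970 and Cs4g05470. Over all genes tested in both, 0.724% did so. No member rose in both or fell in both. With the calls set aside, 18 members (64.3%) had a log2 fold change above 0 in *C. sinensis* and below 0 in *C. grandis*, as did 27.1% of all genes. The count of 4 became 1 without *C. grandis* control library 1, control library 2 or +Al library 2, 2 after libraries were rescaled by their median ratio, and 0 with no filter on low values.

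Among the extensins, XLOC_011383 had 1102 and 1047 FPKM in control and 1584 and 1733 FPKM in +Al roots of *C. sinensis*. In *C. grandis* it had 733 and 881 FPKM in control and 363 and 262 FPKM in +Al roots. Both species' groups were separate, in opposite directions. Its response was log2 0.62 (SE 0.0615, adjusted p 0.0014) in *C. sinensis*, which is under the fold limit, and -1.38 (SE 0.192, adjusted p 5.3e-07) in *C. grandis*. The responses differed by -2.01 (SE 0.229, adjusted p 0.0016). This gene was assembled from the reads and described after an extensin-like protein of another citrus, *Citrus junos*.

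The extensin-like Cs2g05940, named after an extensin of the pistil, had 18.6 and 13.99 FPKM in control and 44.2 and 46.1 FPKM in +Al roots of *C. sinensis*. *C. grandis* roots had 11.9 and 13.7 FPKM in control and 4.38 and 4.18 FPKM in +Al roots. It rose in *C. sinensis* by log2 1.48 (SE 0.140, adjusted p 0.0012) and fell by 1.56 in *C. grandis* (SE 0.333, adjusted p 0.00061). The difference, -3.04 (SE 0.255, adjusted p 0.0006), was the largest in size among the extensins. The remaining extensin, Cs7g03010, of the family of the olive pollen allergen Ole e 1, was near the lower limit at 0.340 to 1.47 FPKM. Its difference of -1.49 (SE 0.637, adjusted p 0.15) did not pass.

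The arabinogalactan protein Cs2g05930 is listed next to Cs2g05940 with no gene between them. It had 52.0 and 55.1 FPKM in control and 140 and 129 FPKM in +Al roots of *C. sinensis*. In *C. grandis* it had 32.3 and 29.3 FPKM in control and 16.4 and 13.3 FPKM in +Al roots. These neighbours thus showed the same pair of responses: Cs2g05930 rose by log2 1.33 (SE 0.0669, adjusted p 0.00023) in *C. sinensis* and fell by 1.05 (SE 0.285, adjusted p 0.0073) in *C. grandis*. The responses of Cs2g05930 differed by -2.38 (SE 0.201, adjusted p 0.0006). Its fall in *C. grandis* was lost in 5 of 10 settings, among them those without control library 1 (adjusted p 0.46), control library 2 (adjusted p 0.36) or +Al library 2 (log2 -0.90).

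The other arabinogalactan proteins changed less. Arabinogalactan protein 20 (orange1.1t00458), named after a short arabinogalactan peptide, had 64.3 and 61.3 FPKM in control and 106 and 109 FPKM in +Al roots of *C. sinensis*. The *C. grandis* libraries had 30.8 and 32.2 FPKM in control and 25.0 and 22.7 FPKM in +Al roots. Its log2 fold change was 0.78 (adjusted p 0.00051) and -0.40 (adjusted p 0.39), neither of them a call, and the difference was -1.18 (SE 0.164, adjusted p 0.0035). The phytocyanin-like Cs7g06440, which joins a domain like that of blue copper proteins to an arabinogalactan stretch, had 32.1 and 27.3 FPKM in control and 46.8 and 41.9 FPKM in +Al roots of *C. sinensis*. In *C. grandis* it had 23.8 and 20.9 FPKM in control and 13.0 and 11.1 FPKM in +Al roots. Both species' groups were separate but the changes, 0.58 and -0.88, were under the fold limit. Its responses differed by -1.46 (SE 0.226, adjusted p 0.0051). The other phytocyanin-like gene, Cs4g01800, stayed at or below 1.42 FPKM and was not called.

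All 5 fasciclin-like arabinogalactan proteins were tested in each comparison and all 5 had the lower response in *C. grandis*, with differences from -0.97 to -1.74. Cs2g16140 (fasciclin-like 1) was the most abundant in +Al *C. sinensis* roots and the only 1 of the 5 that rose there. It had 95.5 and 85.3 FPKM in control and 187 and 190.2 FPKM in +Al roots of *C. sinensis*, and 51.5 and 54.2 against 41.3 and 37.2 FPKM in *C. grandis*. The rise was log2 1.06 (SE 0.0675, adjusted p 0.0004) and, being close to the fold limit, was not called without *C. sinensis* control library 2. In *C. grandis* its change of -0.43 did not pass (adjusted p 0.3). The difference was -1.49 (SE 0.164, adjusted p 0.0014).

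The 2 fasciclin-like members that fell in *C. grandis* were named after fasciclin-like 4 and 10. Fasciclin-like 4 is the protein lost in the *salt overly sensitive 5* mutant of *Arabidopsis*, whose root cells swell under salt. Its match, Cs8g18440, was the only fasciclin-like member below 0 in both species: it had 38.3 and 32.6 against 28.3 and 26.2 FPKM in *C. sinensis*, and 25.2 and 31.6 against 10.6 and 11.5 FPKM in *C. grandis*. Its fall in *C. grandis* was 1.34 on the log2 scale (log2 -1.34, SE 0.292, adjusted p 0.00075). In *C. sinensis* its log2 fold change of -0.37 was under the fold limit (adjusted p 0.034), and the difference of -0.97 had an adjusted p of 0.027. The member named after fasciclin-like 10, orange1.1t00255, had 76.8 and 75.8 against 104 and 112 FPKM in *C. sinensis*, and 49.3 and 57.7 against 23.5 and 21.8 FPKM in *C. grandis*. It fell by 1.24 in *C. grandis* (SE 0.266, adjusted p 0.00067), its log2 fold change of 0.50 in *C. sinensis* was under the fold limit, and the difference was -1.74 (SE 0.176, adjusted p 0.001).

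Both genes named after fasciclin-like 17 were higher in +Al than in control libraries of *C. sinensis* and lower in those of *C. grandis*. Cs6g13410 had 81.3 and 78.3 against 116 and 114 FPKM in *C. sinensis*, and 47.0 and 48.8 against 34.5 and 29.8 FPKM in *C. grandis*. The second, orange1.1t05376, had 37.4 and 36.6 against 56.5 and 53.3 FPKM in *C. sinensis*, and 36.6 and 38.5 against 18.9 and 21.0 FPKM in *C. grandis*. Neither passed the fold limit within a species. Their differences in response were -1.10 (SE 0.167, adjusted p 0.0047) for Cs6g13410 and -1.48 (SE 0.174, adjusted p 0.0018) for orange1.1t05376.

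The hybrid proline-rich proteins, small proteins with a proline-rich start and a cysteine-rich end, were first known from carrot cells forming embryos. Both members, Cs3g08970 and Cs3g08990, carry the same description and are listed with 1 gene between them, so reads that match both genes would make their separate values uncertain. Cs3g08990 had 116 and 98.2 FPKM in control and 315 and 301 FPKM in +Al roots of *C. sinensis*. *C. grandis* roots had 43.9 and 38.0 FPKM in control and 36.4 and 17.6 FPKM in +Al roots. Its rise of log2 1.53 in *C. sinensis* (SE 0.0872, adjusted p 0.0003) was the largest among members whose call held in every setting. In *C. grandis* its +Al libraries lay below the control libraries but stood far apart, and the change of -0.69 did not pass (adjusted p 0.11). It was -0.17 without +Al library 2 and -1.21 without +Al library 1, where it passed (adjusted p 0.034). The difference was -2.22 (SE 0.417, adjusted p 0.011), a call lost in 6 of 13 settings.

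Cs3g08970 was low in *C. sinensis*, with 0.819 and 3.45 FPKM in control and 9.10 and 6.71 FPKM in +Al roots. In *C. grandis* it had 90.2 and 78.2 FPKM in control and 46.0 and 20.02 FPKM in +Al roots. The order of the 2 genes was thus reversed between the species: Cs3g08990 was the higher in every *C. sinensis* library and Cs3g08970 in every *C. grandis* library. Mapping to the *C. sinensis* genome could bear on this order, and its part was not tested. Cs3g08970 rose by log2 2.13 in *C. sinensis* (SE 0.622, adjusted p 0.046), a call lost without *C. sinensis* control library 1 or without either +Al library. It fell by 1.47 in *C. grandis* (SE 0.287, adjusted p 0.00019), and the difference was -3.60 (SE 0.858, adjusted p 0.026). The fall was lost in 5 of 10 settings, among them those without control library 1 (adjusted p 0.064) and without +Al library 2 (log2 -0.87), and the difference was lost in 7 of 13.

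**Figure D3:**
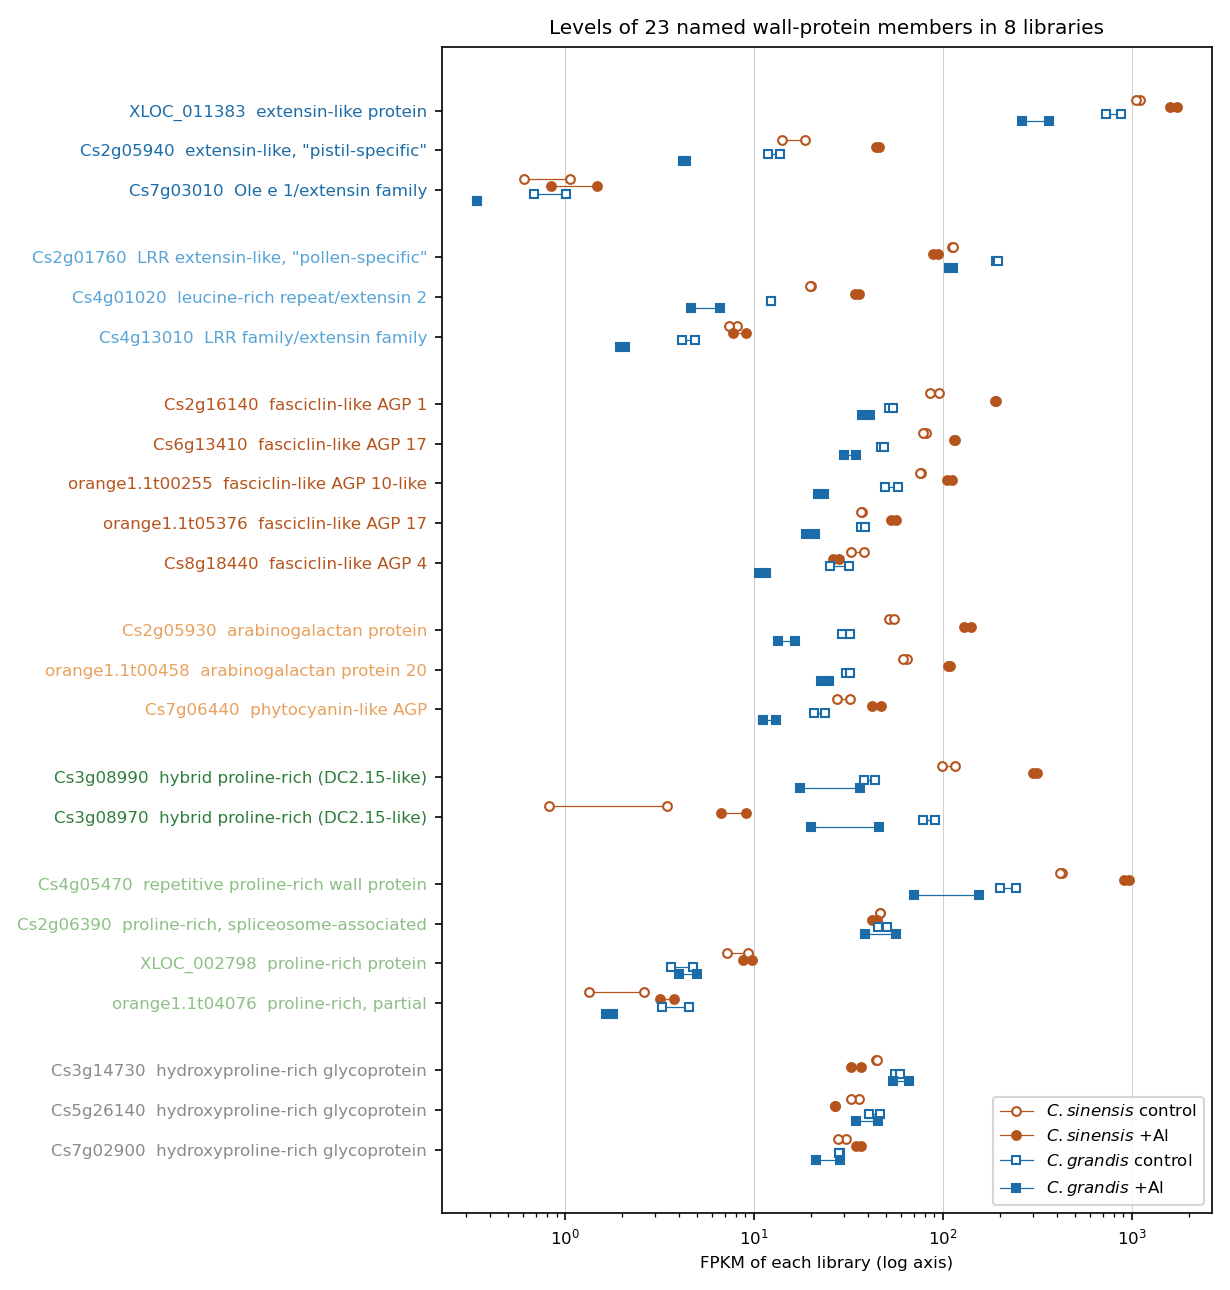
FPKM of the 23 members called in a comparison or among the 3 highest of their class, on a log axis; each symbol is 1 library, a thin line joins the 2 libraries of a group, and label colours mark classes. In most extensin, arabinogalactan and proline-rich members the filled *C. sinensis* circles lie to the right of the open circles and the filled *C. grandis* squares to the left of the open squares.

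Among the other proline-rich proteins, Cs4g05470 was by far the highest, and after XLOC_011383 the second most abundant member in both control and +Al *C. sinensis* roots. It is named after a repetitive proline-rich wall protein, a kind that is made insoluble in the wall by cross-linking. It had 426 and 415 FPKM in control and 906 and 962 FPKM in +Al roots of *C. sinensis*. The *C. grandis* libraries had 201 and 243 FPKM in control and 156 and 70.0 FPKM in +Al roots. It rose by log2 1.15 in *C. sinensis* (SE 0.0503, adjusted p 0.00017) and fell by 1.08 in *C. grandis* (SE 0.254, adjusted p 0.0019). The 2 +Al libraries of *C. grandis* differed by more than the +Al library 1 did from the control mean, and the fall was not called without +Al library 2 or without control library 2. The difference was -2.23 (SE 0.442, adjusted p 0.013).

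The remaining members of that class were low or flat. A partial proline-rich protein, orange1.1t04076, had 1.33 and 2.60 against 3.75 and 3.19 FPKM in *C. sinensis*, and 4.54 and 3.23 against 1.64 and 1.78 FPKM in *C. grandis*. Neither change passed within a species, and the difference of -1.98 had an adjusted p of 0.03. The spliceosome-associated Cs2g06390 lay between 38.6 and 56.0 FPKM in all 8 libraries, with log2 fold changes of -0.10 and -0.04 and a difference of 0.07 (SE 0.253, adjusted p 0.89). XLOC_002798 lay between 3.63 and 9.78 FPKM, with a difference of -0.07 (SE 0.327, adjusted p 0.91).

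Of the 9 leucine-rich repeat extensins, 3 reached the limit of 1 FPKM in *C. sinensis* and 4 did so in *C. grandis*. The 5 tested in neither species were listed at no more than 0.659 FPKM. None rose or fell in *C. sinensis*, where Cs2g01760 and Cs4g01020 had an unadjusted p of at most 0.05. In *C. grandis* Cs4g01020 fell. It is named after leucine-rich repeat/extensin 2, which in *Arabidopsis* acts with a close relative in shaping root hairs. Cs4g01020 had 20.02 and 19.7 against 34.2 and 36.0 FPKM in *C. sinensis*, and 12.2 and 12.3 against 6.57 and 4.64 FPKM in *C. grandis*. Its log2 fold change was 0.82 (SE 0.0691, adjusted p 0.00085), under the fold limit, in *C. sinensis* and -1.13 (SE 0.330, adjusted p 0.013) in *C. grandis*. The difference of -1.95 (SE 0.262, adjusted p 0.003) was called in every setting, whereas the fall in *C. grandis* was lost in 6 of 10. The 4 genes with a root hair name summed to 54.7 to 78.2 FPKM. Most of this came from Cs1g18100 and Cs2g10860, named after ROOT HAIR DEFECTIVE 3. The 2 named as root hair specific, Cs2g02770 and Cs3g06920, stayed at or below 1.49 FPKM, and Cs2g02770 was not tested. Of the 4, 3 were tested in *C. sinensis*, 2 in *C. grandis* and 3 in the difference. None was called, which is near the background for so few genes, so root hairs were not checked by this list. At an unadjusted p of at most 0.05 there were 2 in *C. sinensis* and 0 otherwise.

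The most abundant of this class, Cs2g01760, is named as pollen-specific, yet it had 111 and 112 FPKM in control and 93.9 and 88.7 FPKM in +Al root tips of *C. sinensis*. In *C. grandis* it had 191 and 196 FPKM in control and 113.3 and 107 FPKM in +Al roots. Among the leucine-rich repeat extensins tested in both species, it was the only 1 that was lower in +Al roots of both species, with log2 fold changes of -0.29 (adjusted p 0.011) and -0.81 (adjusted p 0.0066), neither of which reached the fold limit. The difference of -0.52 was the smallest called (SE 0.139, adjusted p 0.039), and leaving out any library of the 8, apart from those of +Al *C. grandis*, ended that call. Cs4g13010 had 8.09 and 7.39 against 7.69 and 9.01 FPKM in *C. sinensis*, where the groups overlapped, and 4.88 and 4.13 against 1.94 and 2.07 FPKM in *C. grandis*. Its difference was -1.23 (SE 0.286, adjusted p 0.024).

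**Figure D4:**
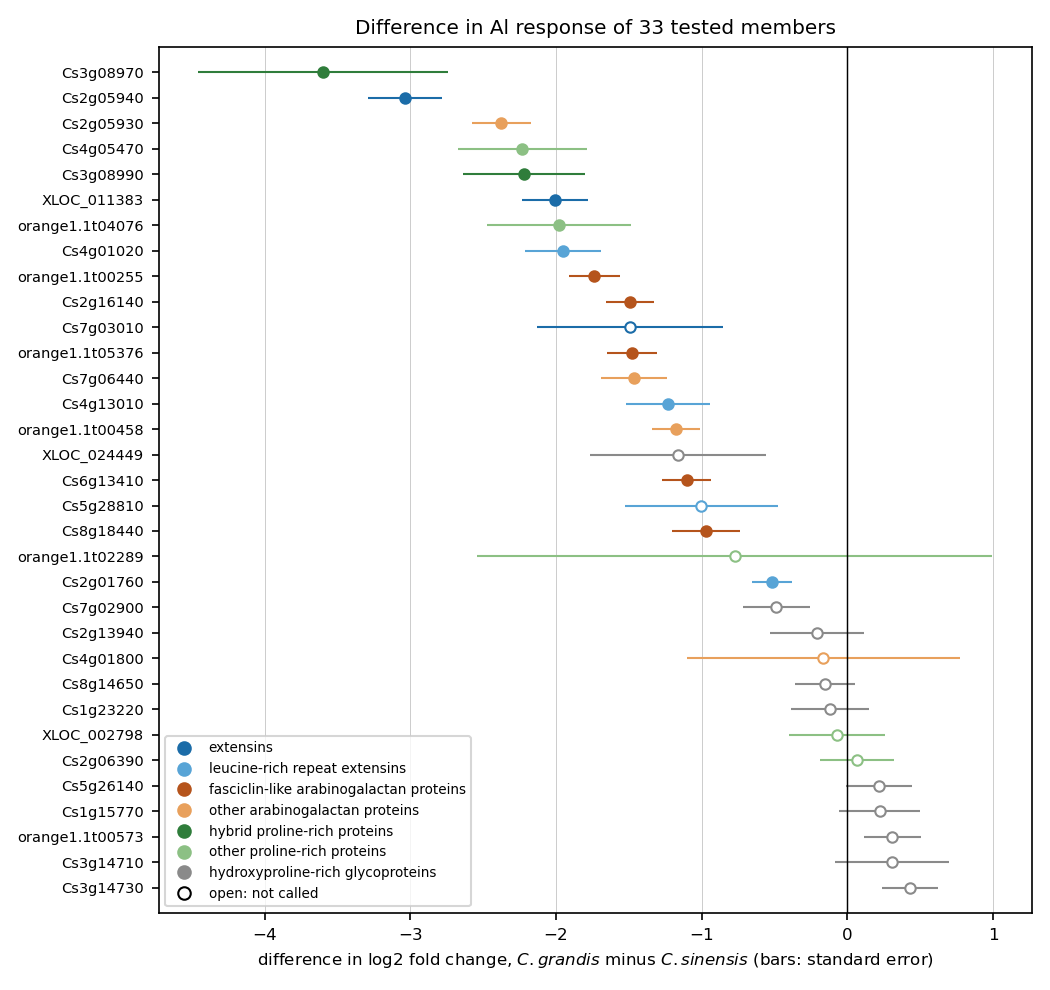
Difference in log2 fold change (*C. grandis* minus *C. sinensis*) of the 33 tested members, in order of size, with bars of 1 standard error; filled symbols passed an adjusted p of 0.05 and colours mark classes. The 17 filled symbols lie between -3.60 and -0.52, and the hydroxyproline-rich glycoproteins are all open and lie mostly around 0.

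No hydroxyproline-rich glycoprotein was called by limma, of 10 tested in *C. sinensis*, 9 tested in *C. grandis* and 10 in the difference. The shares over all genes were 4.46% for rises and 4.06% for falls in *C. sinensis*, with 5.2 and 7.25% in *C. grandis*, so counts of 0 in groups of this size are near the background. At an unadjusted p of at most 0.05 there were 5, 0 and 0, beside 8922 of 19152, 4931 of 18677 and 6506 of 20158 genes. The median log2 fold change was -0.09 in *C. sinensis*, -0.13 in *C. grandis*, and 0.05 for the difference. The highest of them, Cs3g14730, had 44.3 and 44.7 against 32.4 and 36.8 FPKM in *C. sinensis*, and 56.0 and 58.8 against 54.7 and 65.8 FPKM in *C. grandis*. Its log2 fold change was -0.37 (SE 0.0803, adjusted p 0.019) in *C. sinensis*, under the fold limit, and 0.06 (SE 0.248, adjusted p 0.92) in *C. grandis*. Cs5g26140 was alike, with 36.0 and 32.5 against 26.8 and 26.7 FPKM in *C. sinensis* and 40.8 and 46.6 against 34.7 and 45.3 FPKM in *C. grandis*. Cs7g02900 went the other way in *C. sinensis*, from 30.6 and 28.0 to 36.7 and 34.6 FPKM, a log2 change of 0.28 (SE 0.0768, adjusted p 0.036). *C. grandis* roots had 28.5 and 28.1 against 21.2 and 28.4 FPKM.

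The 18 members not named by the rule for named genes had group means of at most 25.5 FPKM. The rule names every called member, so by definition none of the 18 was called.

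Enzymes that act on these proteins and another GPI-anchored wall family were counted alongside. None of 5 prolyl 4-hydroxylases, which make the hydroxyproline, was called in any comparison. At an unadjusted p of at most 0.05 2 passed in *C. sinensis*, 1 passed in *C. grandis* and 1 in the difference, and the median difference was -0.29. Cs1g26050 had 57.9 and 59.6 against 78.9 and 76.0 FPKM in *C. sinensis*, a log2 change of 0.40 that stayed under the fold limit (adjusted p 0.0043). By far the most abundant of the 5, orange1.1t05481 at 7189 to 9643 FPKM, was the 1 below 0 in *C. sinensis*. Its log2 change was -0.155 there (adjusted p 0.27) and -0.33 in *C. grandis* (adjusted p 0.055). Of 8 glycosyltransferases named as beta-1,3-galactosyltransferases, which extend arabinogalactan chains among other substrates, 7 were tested in *C. sinensis* and 6 were in *C. grandis*, with 0 called in any comparison. At an unadjusted p of at most 0.05 there was 1 in *C. sinensis*, 2 passed in *C. grandis*, and 1 did in the difference. Over all genes between 4.06 and 11.3% were called in a given direction of a comparison, so counts of 0 in lists of 5 and 8 genes are near the background.

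The COBRA-like proteins, a GPI-anchored family, were low in +Al *C. grandis* roots. They are named after COBRA, which is needed in *Arabidopsis* for ordered cellulose and oriented expansion of root cells. Whether the genes listed here share that role was not tested, and Cs9g02720 is named after COBRA-like protein-7. Of 5 genes, 2 were tested in *C. sinensis* with 0 called and 1 at an unadjusted p of at most 0.05. In *C. grandis* 3 were tested and 2 fell, beside 7.25% of all genes. Whether these 2 falls held under the other settings was not examined. Over all genes the falls in *C. grandis* went from 1354 to 88 with no filter on low values. Cs9g02720 had 79.2 and 84.7 against 73.5 and 83.7 FPKM in *C. sinensis*, where the groups overlapped, and 56.8 and 55.7 against 12.3 and 18.1 FPKM in *C. grandis*. It fell by 1.91 on the log2 scale in *C. grandis* (adjusted p 1.4e-06), and the difference of -1.85 had an adjusted p of 0.0036. The second, orange1.1t05508, had 70.0 and 62.0 against 79.0 and 81.3 FPKM in *C. sinensis*, and 21.8 and 17.4 against 4.01 and 10.8 FPKM in *C. grandis*. It fell by 1.54 in *C. grandis* (adjusted p 0.0012), and its difference of -1.83 had an adjusted p of 0.057.

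Some genes with names of xylem and secondary walls, another source of wall proteins in a root sample, also differed in response. Of 18 genes with these names 5 were listed at 0 in all libraries and 11 were tested in the difference. There the median was -1.06, and 5 had the lower and 2 the higher response in *C. grandis*, beside 11.3 and 6.27% of all genes. In *C. sinensis* 2 of 11 rose, beside 4.46% of all genes. In *C. grandis* 1 of 8 fell, beside 7.25%, which is near the background for a list of this size. Laccase 3 (Cs8g20850), which takes part in lignin formation, had 28.3 and 29.2 against 64.4 and 72.9 FPKM in *C. sinensis*. In *C. grandis* it had 18.1 and 18.3 against 16.5 and 20.3 FPKM, and its difference was -1.25 (adjusted p 0.0072). The 2 genes with the higher response in *C. grandis* were laccase-6 (orange1.1t00518), at 0.98 (adjusted p 0.018), and Cs3g22360, at 0.50 (adjusted p 0.046). The summed FPKM of the 18 genes was between 624 and 713 in all 8 libraries, most of it from the xylem serine proteinase Cs3g22360 at 416 to 611 FPKM. The part of tissue makeup in the members' responses was not tested.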

How the data were processed

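The authors removed ribosomal RNA reads with Bowtie, mapped the paired reads of both species to the *C. sinensis* genome with TopHat2, assembled transcripts with Cufflinks and computed the deposited FPKM. The genome build was not given in the sources used here. The authors ran tests of their own with edgeR 3.0.0, under R 2.1.5.

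Members and lists were found by words in the descriptions of genes, and were chosen with earlier results of these data known. FPKM were analysed as log2(FPKM + 0.1) with limma 3.58.1 in R 4.3.3 (a trend of variance on level), keeping genes whose mean reached 1 FPKM in at least 1 compared group. The 4 libraries of a species entered its fit, and all 8 entered the difference. The pseudocount understates changes of low genes. Figures and tables were made with Python 3.11.15, pandas 2.3.3, numpy 2.4.6 and matplotlib 3.10.9. The fits were tested on simulated data.

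Named genes are all members called in a comparison and, in each class, the 3 with the highest group mean. A gene of a counterpart list is named where its values are dwelt on, and was chosen after its values were seen. Relative depth is the most frequent ratio between libraries among FPKM below 0.5 (window of log2 0.05). Reads per gene were not computed. Libraries are pools of 5 seedlings, so p-values rest on the spread between the 2 pools of a group, not between seedlings. The limma fit draws that spread toward a spread shared by genes of similar level. In the *C. grandis* fit it did so strongly (prior degrees of freedom 36.2), so p-values there rest largely on the shared spread. A value of 0 is given only as listed at 0. No genome was used here, so positions and sequences are not given. Alternatives were another pseudocount, other filters, median ratio rescaling, a shared spread, another fold limit, a replicate block and leaving out each library.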

Additional observations from a re-analysis of the deposited data

Results flagged for a closer look

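The responses of 17 members to Al differed between the species at an adjusted p of at most 0.05 (limma, all 8 libraries), each as the log2 response in *C. grandis* minus the log2 response in *C. sinensis*. Among extensins and leucine-rich repeat extensins the differences were -2.01 for XLOC_011383, -3.04 for Cs2g05940, -0.52 for Cs2g01760, -1.95 for Cs4g01020 and -1.23 for Cs4g13010. Among fasciclin-like arabinogalactan proteins they were -1.49 for Cs2g16140, -1.10 for Cs6g13410, -0.97 for Cs8g18440, -1.74 for orange1.1t00255 and -1.48 for orange1.1t05376. Among other arabinogalactan proteins they were -2.38 for Cs2g05930, -1.46 for Cs7g06440 and -1.18 for orange1.1t00458. Among proline-rich proteins they were -3.60 for Cs3g08970, -2.22 for Cs3g08990, -2.23 for Cs4g05470 and -1.98 for orange1.1t04076. All 17 are below 0.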

How the results depend on the processing

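Rises in *C. sinensis* numbered 6 and falls 0 in all settings that kept the fold limit, except 5 rises with a shared spread and with any library left out. With no filter on low values 5 of the 6 rises were shared. Cs3g08970 was lost there, and Cs2g01250, listed at 0 in control and at 0.243 and 0.266 FPKM in +Al roots of *C. sinensis*, was gained. By the adjusted p alone 14 were higher and 5 lower in *C. sinensis*, beside 6934 of 19152 genes that passed in either direction. Falls in *C. grandis* numbered 8, or 2 to 9 with a library left out, and 7 after median ratio rescaling, of which 5 were shared with the 8. Without a filter on low values 0 members fell in *C. grandis* by limma, with 15 lower at an unadjusted p of at most 0.05, and falls over all genes went from 1354 to 88. The prior degrees of freedom of the *C. grandis* fit were 36.2, and 3.17 after rescaling. With a replicate block there were 6 rises in *C. sinensis*, 6 falls in *C. grandis* and 13 lower responses in *C. grandis*. Replicate numbers did not pair the libraries (Pearson's r of deviations across genes -0.0075 and 0.04).

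Lower responses in *C. grandis* numbered 10 to 19 with a library left out, and higher ones 0 to 2 (Cs3g14730 and orange1.1t00573, without +Al library 1). Members that rose in *C. sinensis* but fell in *C. grandis*, a count whose alternatives were chosen after seeing the data, numbered 1 to 5 with a library left out, 2 after rescaling and 0 without the filter. No called value changed sign. Uncalled values near 0 did with a library left out: in *C. sinensis* from -0.0081 to 0.22 for Cs4g13010 and -0.0081 to 0.36 for XLOC_002798, in *C. grandis* from -0.30 to 0.23 for Cs2g06390, -0.07 to 0.20 for Cs3g14730, -0.33 to 0.0538 for Cs5g26140, -0.41 to 0.0076 for Cs7g02900 and -0.0785 to 0.29 for XLOC_002798, and in the difference from -0.20 to 0.33 for Cs2g06390 and -0.25 to 0.11 for XLOC_002798. The causes were not tested.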
